A study of Mus musculus with 8 samples.

Results

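The genes described here are 9 members of the BCL2 family, the proteins that set whether a cell survives or dies through its mitochondria. They were taken by name: the anti-apoptotic genes Bcl2, Bcl2l1 and Mcl1, the effector genes Bax and Bak1, and the BH3-only genes Bcl2l11, Bbc3, Pmaip1 and Bid. Every probe set annotated to 1 of these genes alone was used. Of the 9 genes, 8 had such a probe set, with 27 probe sets in all, and Bax was not analysed here. All 8 had at least 1 probe set bright enough to test, among 11762 genes that did. A total of 21 of the 27 probe sets passed this filter, which kept a probe set above the median of its array in at least 2 of the 4 arrays of a group, and the other 6 are described without being counted as tested.

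The study asked how repeated psychological stress alters the making of red blood cells, and its arrays measured RNA in whole blood of female C57BL/6J mice. The mice were bought at 6 to 8 weeks of age and acclimated before the restraint began. The 4 mice subjected to restraint stress (RST) were held in ventilated tubes for 6 h each day. The 4 control mice stayed undisturbed in their cages and had no food or water during those hours. Blood was taken on Day 7, and 30 ng of RNA from each mouse was amplified, labeled and hybridized to its own Affymetrix Mouse Genome 430 2.0 array. All mice were of the same wild-type strain, and whole cages were assigned to a group, but the cage of each mouse is not in the labels, so an effect of the cage and an effect of RST cannot be told apart.

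In the intrinsic pathway of apoptosis, the effector proteins Bax and Bak form pores in the outer mitochondrial membrane, and cytochrome c leaves through them to activate caspases. Bcl-2, Bcl-xL (the main product of Bcl2l1) and Mcl-1 hold the effectors in check, and the BH3-only proteins bind these guardians, or the effectors themselves, when a cell is damaged, starved of growth factor or exposed to glucocorticoid. Blood cells lean on different guardians: late erythroid cells and platelets depend on Bcl-xL, mature lymphocytes on Bcl-2, and many white cells, neutrophils among them, on Mcl-1.

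Bcl2l1 had the largest difference between the groups. Its RNA was higher in RST mice at all 3 of its tested probe sets, by 1.94-fold to 2.89-fold, while 17 of the 18 tested probe sets of the other members had a mean below that of control mice and none of the 18 passed the test. The log2 fold change, taken as RST minus control, had a median of -0.34 over these 18 and of -0.20 over 25084 tested probe sets. Of all 11762 genes, 67.6% had a lower mean. The direction depended on the scaling: after quantile normalization 11 of the 18 had a lower mean and 7 a higher one. The part of the shift of the arrays in the lower means of the 18 was not tested. No member, and no probe set on the array, passed the threshold after Benjamini-Hochberg adjustment in limma, a linear model with variances shared across probe sets.

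The sequences around the starts of Bcl2l1 and Bcl2 are shown because the main comparison sets these genes against each other. RefSeq (GRCm38.p6) gives Bcl2l1 3 start windows of 300 bases, each with 250 bases before the start and 50 after, and Bcl2 has 1; all 4 lie on the minus strand. Capitals mark matches to a GATA factor motif (AGATAA, or the same starting in T or ending in G) or a Kruppel-like factor motif (CCNCNCCC) on either strand.
Bcl2l1, window 3, chr2:152828440-152828739, minus strand: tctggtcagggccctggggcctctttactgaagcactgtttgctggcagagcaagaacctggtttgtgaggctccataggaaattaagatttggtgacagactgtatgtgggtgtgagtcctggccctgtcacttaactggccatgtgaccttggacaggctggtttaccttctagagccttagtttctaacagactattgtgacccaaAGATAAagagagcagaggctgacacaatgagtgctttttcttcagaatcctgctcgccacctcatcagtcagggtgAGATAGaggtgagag
Bcl2l1, window 2, chr2:152830668-152830967, minus strand: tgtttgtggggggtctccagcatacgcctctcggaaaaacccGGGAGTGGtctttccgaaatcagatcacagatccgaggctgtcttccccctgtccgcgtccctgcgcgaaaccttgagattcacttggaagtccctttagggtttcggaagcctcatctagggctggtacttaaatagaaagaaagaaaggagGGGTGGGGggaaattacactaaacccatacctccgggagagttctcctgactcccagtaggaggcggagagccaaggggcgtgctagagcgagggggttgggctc
Bcl2, chr1:106714241-106714540, minus strand: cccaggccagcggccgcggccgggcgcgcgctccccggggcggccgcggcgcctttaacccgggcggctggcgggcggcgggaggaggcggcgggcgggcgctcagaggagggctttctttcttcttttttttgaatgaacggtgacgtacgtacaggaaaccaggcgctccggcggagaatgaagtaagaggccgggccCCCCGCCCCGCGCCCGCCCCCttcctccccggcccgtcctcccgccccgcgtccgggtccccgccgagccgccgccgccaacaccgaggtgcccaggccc
The Bcl2l1 start window farthest downstream held GATA motifs at -41 and 36 from the start, the next one held Kruppel-like motifs at -208 and -55, and the outermost (chr2:152831679-152831978) held neither. The Bcl2 window held Kruppel-like motifs at -50, -43 and -37, which overlap one another. A GATA motif was found in 29.76% of all 32851 windows and a Kruppel-like motif in 49.47%, so such matches are common, and they describe the letters only. Over the 13 windows of 8 members, 2 held a GATA motif (Bid has the other, at -42) and 9 a Kruppel-like motif. No member window held a STAT motif (TTCNNNGAA, in 8.3% of all windows).

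**Figure D1:**
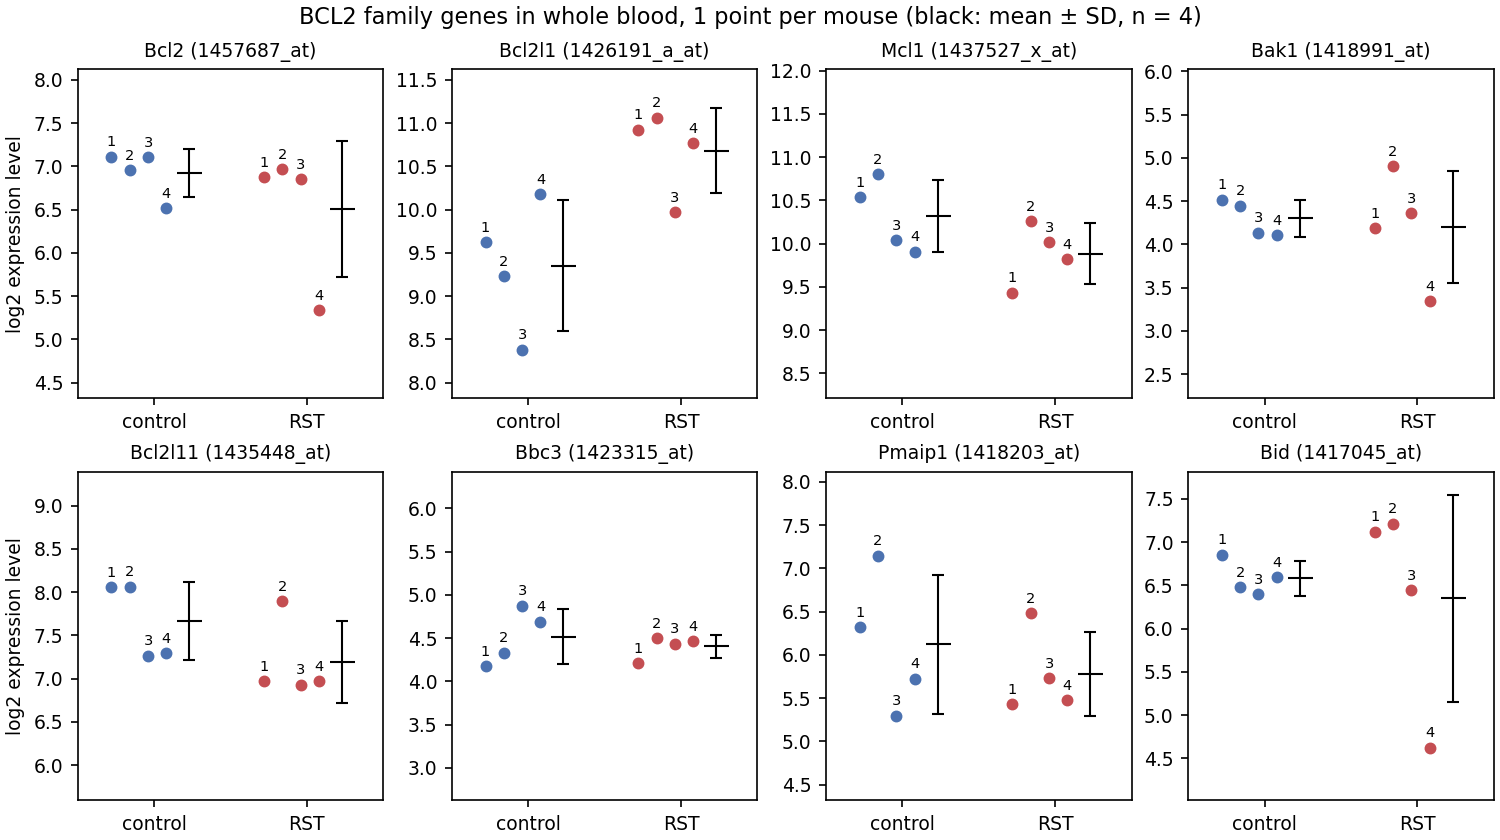
Log2 expression level of each measured BCL2 family gene at its brightest probe set (vertical axis, every panel spanning the same number of log2 units) in 4 control and 4 RST mice, numbered by mouse, with the mean and SD in black. In the Bcl2l1 panel RST mice 1, 2 and 4 sit between 10.77 and 11.06, above all control mice, and in the Bcl2 and Bid panels RST mouse 4 sits far below the other mice.

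Bcl2l1 encodes the guardian that erythroid cells switch to as they fill with hemoglobin. At its brightest probe set, 1426191_a_at, the log2 level was 9.62, 9.23, 8.38 and 10.18 in control mice 1 to 4 and 10.93, 11.06, 9.97 and 10.77 in RST mice 1 to 4. Only RST mouse 3 lay inside the control range, just below control mouse 4. The mean was 9.35 ± 0.76 in control mice and 10.68 ± 0.49 in RST mice (SD, n = 4 each). The log2 fold change was 1.33 with a standard error of 0.40 and a 95% interval of 0.46 to 2.19, a 2.51-fold difference, with an adjusted p of 0.32 in limma and p = 0.057 in a two-sided exact permutation test of the 8 mice, whose smallest possible value is 0.029.

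Both other tested probe sets of Bcl2l1 separated the groups completely. At 1420888_at, control mice had log2 levels of 9.06, 9.001, 9.23 and 9.47 and RST mice 10.29, 10.41, 10.06 and 9.83, a log2 fold change of 0.96 ± 0.25 (SE). At 1420887_a_at, control mice had 8.63, 8.42, 7.50 and 9.42 and RST mice 10.28, 10.38, 9.48 and 9.96, a log2 fold change of 1.53 ± 0.39 (SE). Every RST mouse was above every control mouse at both, with p = 0.029 in the exact permutation test for each and an adjusted p of 0.32 in limma. All 3 read the same 8 RNA samples, so they are not independent measurements. The last probe set, 1426050_at, was below the filter, with log2 levels of 1.59 to 2.25 in control mice and 1.77 to 2.10 in RST mice and a log2 fold change of -0.03 ± 0.20 (SE).

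Read against the whole array, these 3 calls were in the rarer direction. With limits of 0.05 on the unadjusted p and of 1.5 on the fold change, limma called 724 of the 25084 probe sets higher in RST mice (2.89%) and 2613 lower (10.4%), and it called 3 of the members' 21 higher, all of Bcl2l1, and none lower. After adjustment the share called was 0% by limma and also by the test named in the methods (0 of 25084 after adjustment, 2264 before it), while a trended and robust prior in limma gave 35. All RST mice lay above all control mice at 2.23% of probe sets and below them at 5.76%. Among the members' 21 probe sets, 2 were of the first kind and none of the second. A larger log2 fold change than that of Bcl2l1 was found at 36 probe sets for 1426191_a_at, 276 for 1420888_at and 10 for 1420887_a_at. The 3 Bcl2l1 probe sets kept their call in all 19 alternative analyses in which calls were made, including those without RST mouse 4 and without control mice 1 and 2. Calls of another member appeared in 3 of them, all lower in RST mice: Bcl2l11 at 1435448_at with array weights or without RST mouse 2, and Bcl2 at 1443837_x_at with Bcl2l11 at 1456005_a_at without control mouse 3.

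**Figure D2:**
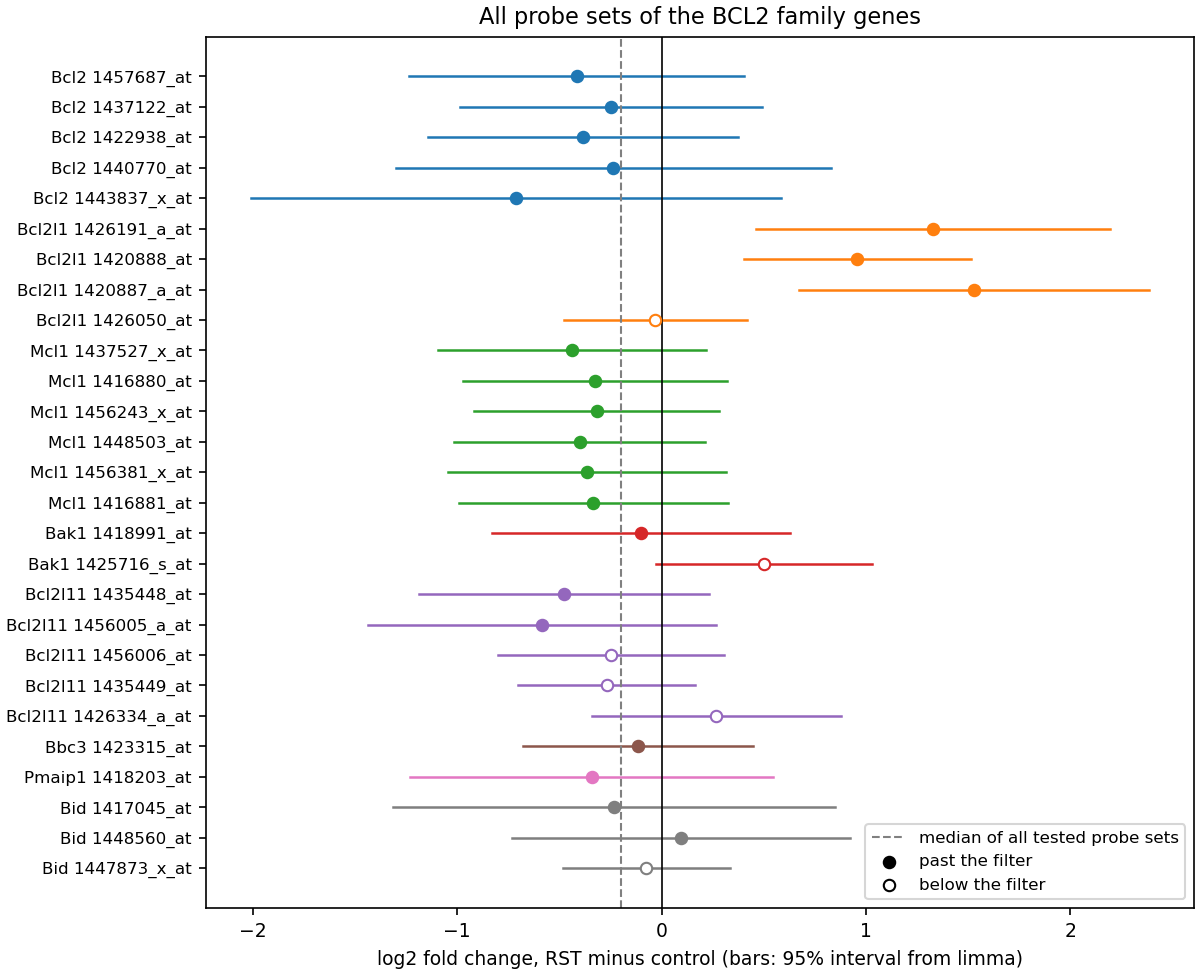
Log2 fold change (RST minus control, horizontal axis) of all 27 probe sets of the measured members, with 95% intervals from limma; filled points passed the filter and the dashed line is the median of all tested probe sets at -0.20. The intervals of the 3 filled Bcl2l1 points lie above 0, and those of all other filled points span it.

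Bcl2, the guardian of mature B and T cells, was close in both groups apart from 1 mouse. At 1457687_at its log2 level was 7.11, 6.96, 7.11 and 6.52 in control mice and 6.87, 6.96, 6.85 and 5.33 in RST mice. RST mice 1 to 3 lay within the control range and RST mouse 4 far below it. Its log2 fold change was -0.42 with a standard error of 0.37 and a 95% interval of -1.24 to 0.40 (adjusted p = 0.61 in limma), and without RST mouse 4 it was -0.03. The mean of RST mice was the lower one at all 5 Bcl2 probe sets, with log2 fold changes from -0.71 to -0.24 and overlapping groups.

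Mcl1, a short-lived guardian that most white cells need, showed the same small lower mean at each of its 6 probe sets, with log2 fold changes from -0.44 to -0.32. At 1437527_x_at the log2 level was 10.53, 10.80, 10.04 and 9.91 in control mice and 9.43, 10.26, 10.02 and 9.82 in RST mice. Control mice 1 and 2 were the highest of the 8 and RST mouse 1 the lowest, with the other mice between. This gave a log2 fold change of -0.44 with a standard error of 0.30 and a 95% interval of -1.09 to 0.22 (adjusted p = 0.51 in limma). The difference was -0.28 without control mouse 2, -0.29 without RST mouse 1, -0.12 with the hybridization controls as a covariate and -0.09 without control mice 1 and 2.

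Of the effector genes, which encode the pore-forming proteins, Bak1 was measured and Bax was not. At 1418991_at the Bak1 log2 level was 4.52, 4.45, 4.14 and 4.11 in control mice and 4.19, 4.91, 4.36 and 3.34 in RST mice. RST mice held both the highest and the lowest value. The log2 fold change was -0.10 with a standard error of 0.33 and a 95% interval of -0.83 to 0.63 (adjusted p = 0.91 in limma), and its sign turned in 5 of 20 alternative analyses, quantile normalization among them. The other Bak1 probe set, 1425716_s_at, was below the filter at log2 levels of 1.93 to 2.28 in control mice and 2.30 to 3.26 in RST mice, groups that did not overlap (log2 fold change 0.50, standard error 0.24, exact permutation p = 0.029).

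The BH3-only genes carry the death signal. Bcl2l11 encodes Bim, which removes lymphocytes after growth factor loss or glucocorticoid exposure. At 1435448_at its log2 level was 8.06, 8.06, 7.27 and 7.30 in control mice and 6.97, 7.90, 6.93 and 6.97 in RST mice. RST mice 1, 3 and 4 lay below all control mice, and RST mouse 2 lay with the highest controls. The log2 fold change was -0.48 with a standard error of 0.33 and a 95% interval of -1.19 to 0.23 (adjusted p = 0.50 in limma, exact permutation p = 0.17), and without RST mouse 2 it was -0.71 and past the unadjusted threshold. It was -0.06 with the hybridization controls as a covariate and -0.09 without control mice 1 and 2, the highest of the control mice. The other tested probe set, 1456005_a_at, gave a log2 fold change of -0.59 ± 0.39 (SE) with overlapping groups, and 3 dim ones below the filter had values from -0.27 to 0.27.

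Bbc3 and Pmaip1 encode Puma and Noxa, which are made when p53 is active, and Noxa binds Mcl-1 in particular. The Bbc3 log2 level was 4.18, 4.33, 4.88 and 4.69 in control mice and 4.21, 4.50, 4.44 and 4.47 in RST mice, so that all RST mice lay inside the control range. Its log2 fold change was -0.11 (standard error 0.26, 95% interval -0.68 to 0.45, adjusted p = 0.86 in limma). The Pmaip1 log2 level was 6.32, 7.15, 5.29 and 5.72 in control mice and 5.43, 6.48, 5.73 and 5.47 in RST mice, again inside the control range. Its log2 fold change was -0.34 (standard error 0.41, 95% interval -1.23 to 0.55, adjusted p = 0.71 in limma). Both signs turned after quantile normalization, to 0.08 and 0.01.

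Bid is cut by caspase-8 and links death receptors to the mitochondria. At 1417045_at its log2 level was 6.85, 6.48, 6.40 and 6.60 in control mice and 7.12, 7.21, 6.44 and 4.62 in RST mice. RST mice 1 and 2 lay above all control mice and RST mouse 4 far below them. The log2 fold change was -0.23 with a standard error of 0.49 and a 95% interval of -1.31 to 0.85 (adjusted p = 0.85 in limma), and without RST mouse 4 it was 0.34. The second probe set, 1448560_at, gave a log2 fold change of 0.10 ± 0.38 (SE), and the dim 1447873_x_at one of -0.07. Over the 7 measured members other than Bcl2l1, the 95% intervals ran from -1.31 to 0.85.

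The design sets the erythroid guardian Bcl2l1 against the lymphoid guardian Bcl2 and against the BH3-only genes, and the difference of 2 log2 levels within each mouse cancels a shift of the array only where it is equal at both levels. With quantile normalization the differences were smaller, for example 1.29 against Pmaip1 and 1.23 against Bid in place of 1.67 and 1.56. Without that normalization the difference had a higher mean in RST mice for all 5 partners, by 1.44 to 1.81 log2 units. Bcl2l1 alone differed by 1.33, and by 1.59 relative to the array median, so an unchanged partner would also give a higher mean. These differences are thus mostly that of Bcl2l1 itself, and the members were chosen with earlier results of these data known. Bcl2l1 minus Bcl2 was 2.51, 2.28, 1.27 and 3.66 in control mice and 4.05, 4.10, 3.12 and 5.43 in RST mice. Only RST mouse 3 fell within the control range. The mean difference between groups was 1.75 log2 units (standard error 0.68), from 2.43 ± 0.98 in control mice to 4.18 ± 0.95 in RST mice (SD, n = 4 each), with p = 0.057 in the exact permutation test. Over all 15 pairings of a tested Bcl2l1 probe set with a Bcl2 probe set, the difference was between 1.19 and 2.24, and groups did not overlap in 7 of them. The pairings share mice and probe sets and are not independent, and 2 of the Bcl2l1 probe sets separated the groups on their own.

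Against the BH3-only genes the separation was complete for Bcl2l11 and Bbc3. Bcl2l1 minus Bcl2l11 was 1.56, 1.17, 1.11 and 2.88 in control mice and 3.95, 3.17, 3.04 and 3.80 in RST mice, a mean difference of 1.81 (standard error 0.47). Bcl2l1 minus Bbc3 was 5.45, 4.90, 3.50 and 5.49 in control mice and 6.71, 6.57, 5.54 and 6.30 in RST mice, a mean difference of 1.44 (standard error 0.53). For both, the exact permutation p was 0.029, the smallest that 4 against 4 mice can give. With 1 mouse left out it was above 0.05 in 7 of 8 cases for Bbc3 (all but that without RST mouse 3, exact permutation p up to 0.11) and in the 4 cases without an RST mouse for Bcl2l11. For Bcl2l1 minus Pmaip1 the mean difference was 1.67 (standard error 0.57) and for Bcl2l1 minus Bid it was 1.56 (standard error 0.69), each with an overlap of 1 mouse and an exact permutation p of 0.057. Adjusted over the 5 comparisons, all of which share the Bcl2l1 values, every exact permutation p was 0.057. Leaving out 1 mouse moved the difference against Bcl2 between 1.33 (without RST mouse 4) and 2.16 (without control mouse 4) and the one against Bid between 0.96 (without RST mouse 4, whose own value of 6.15 stood far above the 3.53 to 3.85 of the other RST mice) and 1.83, and the direction was the same in all 20 alternatives of all 5 comparisons.

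**Figure D3:**
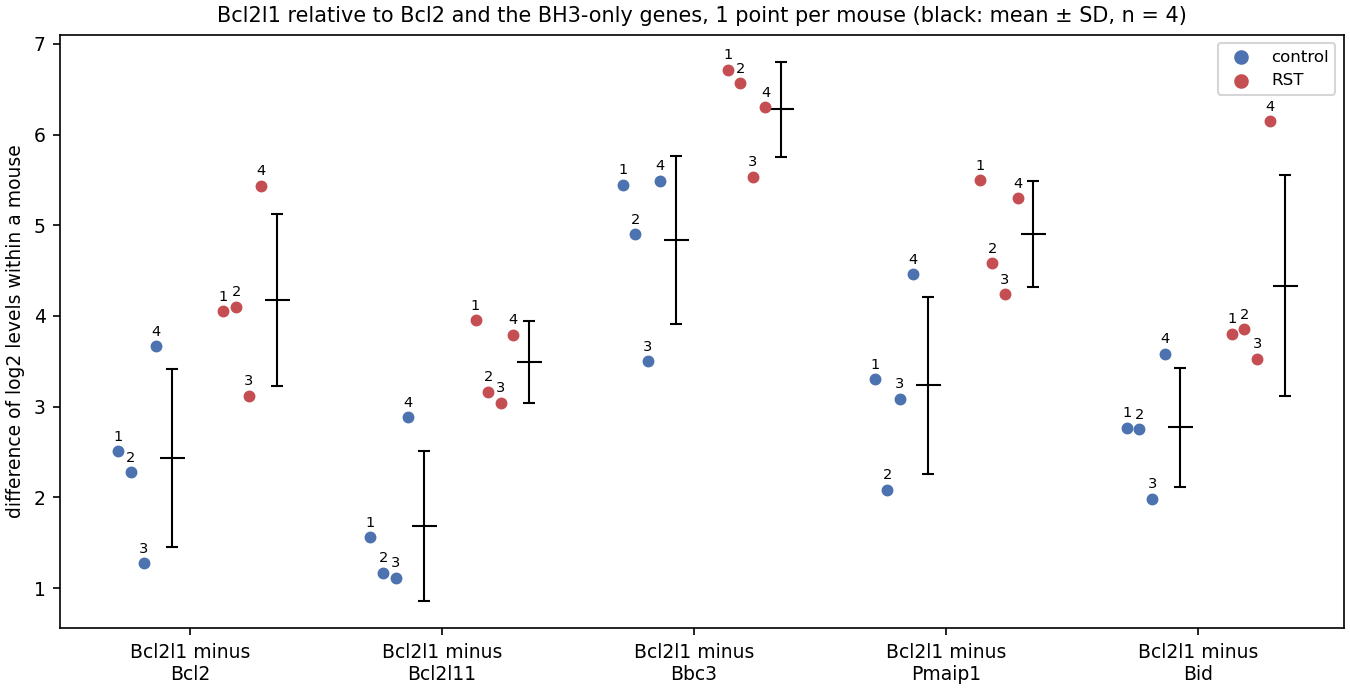
Difference of log2 levels within a mouse, Bcl2l1 minus each partner gene (vertical axis, log2 units), for 4 control and 4 RST mice numbered by mouse, with mean and SD in black; heights of different partners depend on the probe sets and are not comparable. RST mice lie above all control mice for Bcl2l11 and Bbc3, and 1 RST mouse overlaps the controls for Bcl2, Pmaip1 and Bid.

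Setting each array to the median of its tested probe sets made the differences of Bcl2, Mcl1, Bcl2l11, Pmaip1 and Bid smaller. Those of Bak1 and Bbc3 changed sign and grew in size, from -0.10 to 0.16 and from -0.11 to 0.15. On that scale Bcl2l1 was 4.36 above the array median in control mice and 5.95 in RST mice, a difference of 1.59 log2 units (exact permutation p = 0.057). Of the other 7, Bcl2, Mcl1, Bcl2l11 and Pmaip1 still had the lower mean in RST mice and Bak1, Bbc3 and Bid the higher one, with differences between -0.21 (Bcl2l11) and 0.16 (Bak1). Over the members' 21 probe sets, RST mouse 4 was the lowest of the 8 mice at 7, RST mouse 1 at 6, and control mouse 2 the highest at 8. Over all tested probe sets RST mouse 4 was the lowest at 41.6%, and arrays of a group correlated at 0.88 to 0.96. The hybridization controls, RNAs added before hybridization, had a mean log2 level of 11.9 on the arrays of control mice 1 and 2, against 12.35 to 12.74 on the other 6, and the part of this in the results was not tested beyond the alternatives given.

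Genes whose level, relative to the array median, followed that of Bcl2l1 most closely over the 8 mice were Mxd1, a repressor of Myc targets (Pearson r = 0.99), Pbrm1, a chromatin remodeling subunit (0.98), Smim3 (0.98), Usp40 (0.98) and Litaf (0.98), of 11761 genes compared. Mxd1 had a log2 fold change of 0.90 ± 0.30 (SE) and Smim3 one of 0.11 ± 0.26 (SE). For Bcl2 the closest were Patz1 (0.97), Stard3 (0.96), Arap1 (0.96), Mbd3 (0.95) and Casp6 (0.94), all with a lower mean in RST mice, from -0.60 to -0.35. These correlations describe the 8 mice, which differ in group and in array, and carry no test.

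The relatives outside the 9 genes showed no member past the test. Of 18 other BCL2 family genes, 11 passed the filter, 4 with a higher and 7 with a lower mean, and their median log2 fold change was -0.12, against -0.24 over all 11762 genes, of which 67.6% had a lower mean and 329 were called higher and 1509 lower at the unadjusted threshold. Those with the smallest p were Bnip2 (-0.67, standard error 0.39) and Bcl2l14 (0.31, standard error 0.28). After quantile normalization 7 of the 11 had a higher mean, so this list has no settled direction.

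Downstream, where caspases carry out the death program, means were lower. Of 12 measured genes of the caspase and apoptosome list 11 had a lower mean in RST mice, with a median log2 fold change of -0.57, and 3 were called at the unadjusted threshold. Over all 11762 genes 67.6% had a lower mean and 1509 were called lower, the background for this list and those below. Casp8, the initiator caspase of the death receptors that also cuts Bid, had log2 levels of 7.19, 7.13, 6.46 and 6.19 in control mice and 5.01, 5.98, 5.94 and 5.03 in RST mice. Every RST mouse was below every control mouse, and the log2 fold change was -1.25 (standard error 0.35). Dffb, a nuclease that cuts DNA in dying cells, had a log2 fold change of -0.90 ± 0.36 (SE) and Casp2 one of -0.74 ± 0.31 (SE), both with overlapping groups. After quantile normalization 10 of the 12 had a lower mean and 2 were called, and leaving out 1 mouse the number called was 1 (without RST mouse 3 or 4 or control mouse 1 or 2) to 5 (without RST mouse 2). The list median was -0.34 without RST mouse 4 and -0.26, with none called, without control mice 1 and 2.

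The inhibitor of apoptosis genes, whose products block caspases or signal for survival, had the same direction as the caspases. All 8 measured had a lower mean in RST mice (median log2 fold change -0.52, or -0.32 without RST mouse 4 and -0.25 without control mice 1 and 2), though after quantile normalization 2 of the 8 turned higher. Those called were Birc3 (-0.99, standard error 0.40), which acts in NF-kB signaling, and Naip5 (-1.07, standard error 0.44) and Naip2 (-0.97, standard error 0.41), sensors of bacterial proteins in the inflammasome. Their groups overlapped, and none was called without RST mouse 4 or control mouse 2. Naip genes resemble each other closely, so their probe sets may share signal.

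Among 10 measured genes for MCL1 turnover and mitochondrial channels, 3 had a higher and 7 a lower mean, also after quantile normalization (1 and 9 with arrays scaled by their control probe sets). Marchf5, an E3 ubiquitin ligase of the outer mitochondrial membrane, was called higher: its log2 level was 10.24, 10.00, 10.74 and 10.80 in control mice and 11.32, 11.32, 11.24 and 11.13 in RST mice, with no overlap and a log2 fold change of 0.81 ± 0.27 (SE). Control mice 1 and 2 held its lowest values, and it was not called without them (0.48) or with the hybridization controls as a covariate (0.58). Huwe1, a ubiquitin ligase that marks Mcl-1 for destruction, was called lower, at 7.08, 6.86, 6.69 and 6.13 in control mice and 5.48, 6.63, 5.54 and 4.22 in RST mice. Its log2 fold change was -1.22 (standard error 0.45), with RST mouse 2 inside the control range. Slc25a4, an ADP/ATP carrier of the inner membrane, had a log2 fold change of -0.75 ± 0.29 (SE). Without control mouse 1 neither of the pair was called.

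Of 15 measured regulators of BCL2 family transcription, 13 had a lower mean in RST mice, 4 of them called lower, with a median of -0.45 (-0.27 without RST mouse 4 or control mouse 2). Il7r, the interleukin 7 receptor through which T cells keep up Bcl2, was 9.31, 8.98, 8.84 and 9.19 in control mice and 8.21, 8.52, 8.45 and 8.33 in RST mice, with no overlap and a log2 fold change of -0.70 ± 0.24 (SE). Tnfrsf13c, the BAFF receptor that B cells need to survive, had -0.95 (standard error 0.33) and is also counted in the B cell marker list. Foxo1 had -0.96 (standard error 0.38) and Rela, an NF-kB subunit, had -0.80 (standard error 0.35). For Tnfrsf13c, Foxo1 and Rela the groups overlapped. The 2 with a higher mean were not called in the main comparison. Gata1, the erythroid transcription factor that raises Bcl2l1 in red cell precursors, had 0.66 (standard error 0.35) and Foxo3 had 0.56 (standard error 0.27). For Foxo3 every RST mouse was narrowly above every control mouse (lowest RST mouse 9.712, highest control mouse 9.708), and for Gata1 the groups overlapped. Gata1 was called higher with quantile normalization (0.96), with array weights (0.89) and without RST mouse 4 (0.98), and Foxo3 with the hybridization controls as a covariate (0.79), without RST mouse 3 (0.66) and without control mice 1 and 2 (0.80). Stat5a, which also acts on Bcl2l1, had -0.45 (standard error 0.28), and the erythropoietin receptor gene Epor was below the filter. Gata1, Foxo3, Stat5a and Epor were named after their values were seen. After quantile normalization 8 of the 15 had a lower mean, and 2 were called lower without RST mouse 4 or control mouse 1 or 2.

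Among the genes of p53 and of the death receptors 1 was called. Of 10 measured p53 genes, 3 had a higher and 7 a lower mean (median log2 fold change -0.28), and Ccng1 was called lower at -0.79 (standard error 0.33), though not without RST mouse 4 or control mouse 1, 2 or 4, with Ei24 next at -0.69 (standard error 0.34). Of 9 measured death receptor genes, 2 had a higher and 7 a lower mean (median -0.15) and none was called, those with the smallest p being Ripk3 (-0.57, standard error 0.35) and Tradd (-0.54, standard error 0.35). After quantile normalization the p53 list was split 5 to 5 and 6 of the 9 death receptor genes had a higher mean. No gene of any of these lists passed the adjusted threshold in limma.

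**Figure D4:**
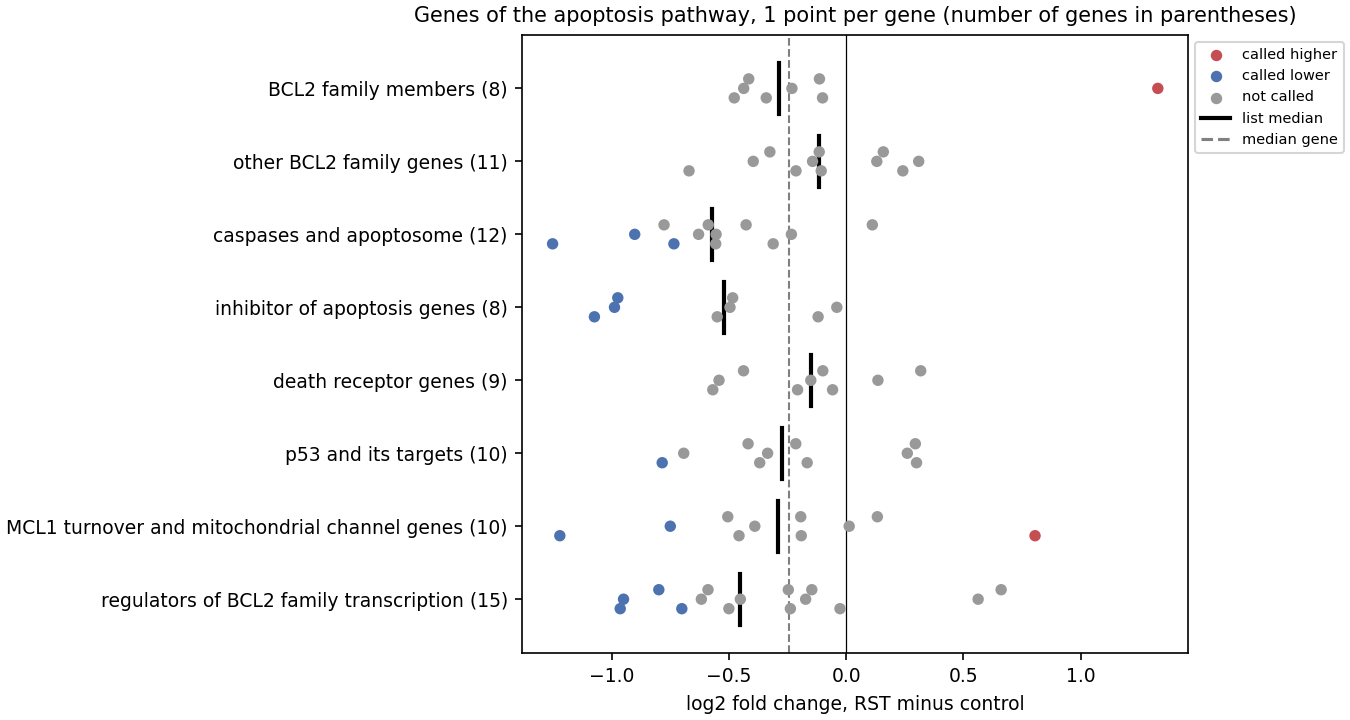
Log2 fold change (RST minus control, horizontal axis) of each measured gene in the lists of the apoptosis pathway, with the list median as a black bar and the median of all genes (-0.24) as a dashed line; called means past 0.05 in the unadjusted limma p and past 1.5 in fold change. Bcl2l1 is the rightmost point and Marchf5 is the other called higher. All list medians lie to the left of the dashed line except those of the other BCL2 family genes and the death receptor genes.

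Marker genes of blood cells differed in both directions. Of 14 measured erythroid markers 13 had a higher mean in RST mice (14 with quantile normalization and 10 when arrays were scaled by their control probe sets), with a median log2 fold change of 0.37, and 5 were called higher (2 to 6 with 1 mouse left out). The largest log2 fold changes of this list were 1.36 for Epb42, a red cell membrane protein, and 1.33 for Ank1, the ankyrin of the red cell skeleton. Only these were close to that of Bcl2l1. Klf1 had 0.85 (standard error 0.57) with overlapping groups and was not called. The heme synthesis gene Alas2 had 0.10, Tfrc 0.01 and Ermap -0.08. These genes were named after their values were seen. The mean level of the erythroid list was 8.22 to 9.04 in control mice and 8.78 to 9.63 in RST mice. Platelet markers, from the other cells that depend on Bcl-xL, had a higher mean at 9 of 10 genes (10 with quantile normalization and 6 with the scaling by control probe sets), with a median of 0.21 and none called.

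List medians of the white cell markers were all below 0. All 15 measured B cell markers had a lower mean in RST mice, 14 of them called (4 without control mice 1 and 2), with a median log2 fold change of -1.09 and list levels of 7.55 to 8.56 in control mice and 6.79 to 7.31 in RST mice. All 16 T cell markers had a lower mean (15 after quantile normalization), with a median of -0.65 and levels of 6.97 to 7.50 and 5.99 to 7.00. Of these 9 were called, against 3 without RST mouse 4 or control mouse 1, 2 with the hybridization controls as a covariate and 1 without control mice 1 and 2. The medians were -0.71 for NK cell markers (5 of 11 called lower), -0.75 for monocyte markers (5 of 11), -0.54 for neutrophil markers (3 of 12; -0.26 without RST mouse 4) and -0.58 for eosinophil and basophil markers (2 of 9). Without control mice 1 and 2 the number called lower was 1 for NK cell, 2 for monocyte, 3 for neutrophil and 1 for eosinophil and basophil markers. The neutrophil list was split: the 3 called were Camp, Ngp and Ltf, which encode granule proteins, and 5 of the 12 (Csf3r, Cxcr2, Mmp9, Mmp8 and Il1r2) had a higher mean in RST mice, from 0.04 to 0.75. These 8 genes were named after their values were seen. The B cell marker Pax5 was below the filter, and the T cell marker Lck was not analysed here. Hepatocyte markers were split 2 to 2 and all 5 cardiac muscle markers were below the filter. Each array received RNA from whole blood in a fixed amount. Fewer cells of a type, less RNA per cell and a larger share of RNA from other cells therefore cannot be told apart. The part of these markers in the results for Bcl2l1, Bcl2 and the other members was not tested.

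**Figure D5:**
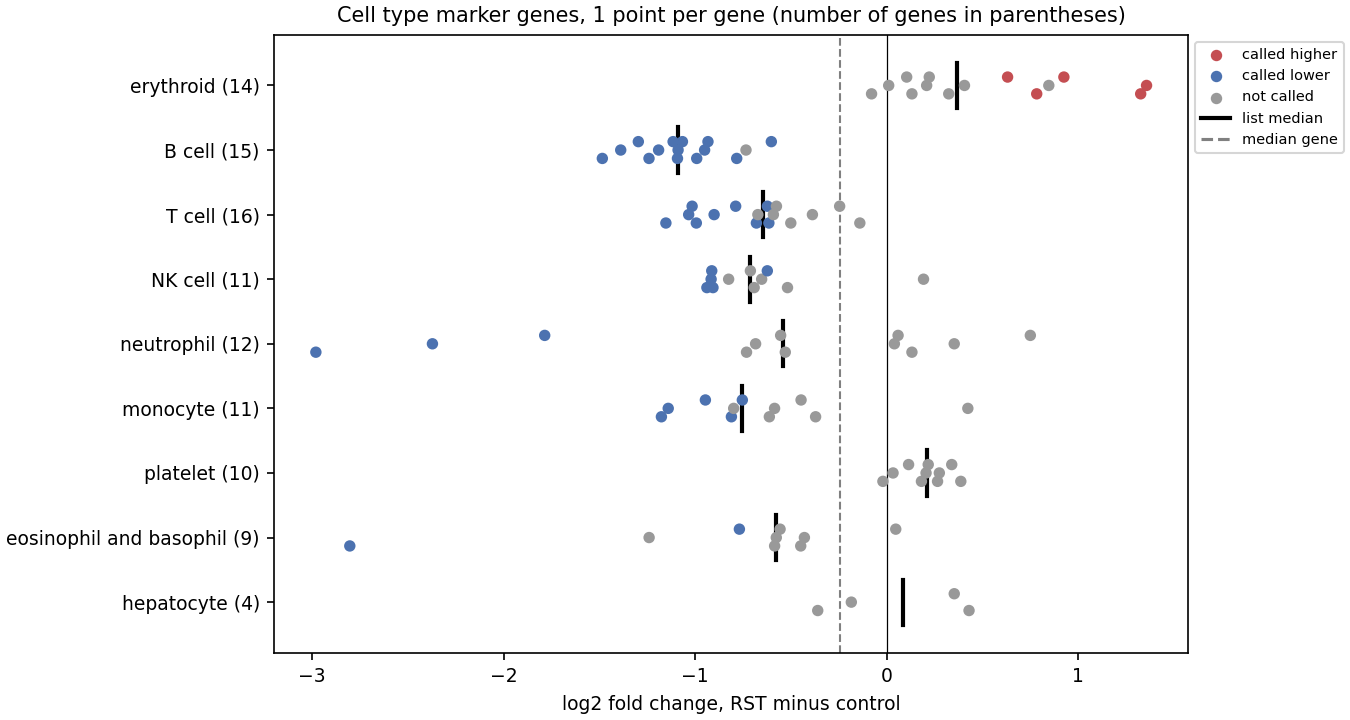
Log2 fold change (RST minus control, horizontal axis) of each measured marker gene by blood cell type, with list medians as black bars and the median of all genes (-0.24) as a dashed line; called means past 0.05 in the unadjusted limma p and past 1.5 in fold change. Erythroid and platelet medians (0.37 and 0.21) lie to the right of 0, and those of the white cell lists lie to the left of the dashed line.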

How the data were processed

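RNA of whole blood from 4 RST and 4 control mice was measured on 8 arrays. The authors deposited 1 log2 value per probe set and array. Per the submitters' processing notes, RMA, Partek and Affymetrix Expression Console 1.2.0.20 were used, and per the methods the normalization was GSRMA. Presence calls were not used here. Instead, a probe set was tested if at least 2 of the 4 arrays in either group had it above their median (25084 of 45101, with 64 control probe sets left out). The comparison of groups used R 4.3.3 and limma 3.58.1 (Benjamini-Hochberg adjustment), and single values by exact permutation. A gene is represented by its brightest tested probe set, and 34945 probe sets name 1 gene. Named are all members, the 2 genes of smallest p and any called per pathway list, the 5 genes most alike, and some others outside this rule. Members and lists were chosen with earlier results of these data known. The fit was tested on simulated data. Alternatives changed the filter, scaling, floor, prior, weights, test, covariate, replicate block, probe set and mice. Numbering of mice did not pair them. With 4 arrays a group, their number limits the precision. Figures were drawn with matplotlib 3.10.9.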

Additional observations from a re-analysis of the deposited data

Results flagged for a closer look

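A mouse lay far from the other 3 of its group in 4 of the 52 sets of 4 values examined, where chance flags about 1 in 20; the figure given is its gap to the nearest mouse as a share of the group's range. In RST mouse 4, Bcl2 at 1457687_at was 5.33 against 6.85 to 6.96 in the other RST mice (0.931), Bcl2l11 at 1456005_a_at was 4.65 against 5.79 to 6.01 (0.837), and Bcl2l1 minus Bid was 6.15 against 3.53 to 3.85 (0.876). In RST mouse 2, Bcl2l11 at 1435448_at was 7.90 against 6.93 to 6.97 (0.956).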

How the results depend on the processing

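Of 3337 probe sets at the unadjusted threshold, the count was 5539 with array weights, 2091 with the hybridization controls as a covariate, 856 without control mice 1 and 2, 1731 without control mouse 1, 1751 without control mouse 2 and up to 4933 without RST mouse 2. It was split into 1414 higher and 1575 lower with quantile normalization, 292 and 4623 with arrays scaled by their control probe sets, and 1277 and 1470 without RST mouse 4, against 724 and 2613. The median gene moved from -0.24 to -0.05 and -0.45 under these scalings. The adjusted count of 0 became 35 with a trended and robust prior.

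Bcl2l1 kept a positive log2 fold change in all 20 alternatives (0.95 to 1.61, adjusted p 0.088 to 0.98), and Bcl2, Mcl1 (-0.64 to -0.090) and Bcl2l11 (-0.71 to -0.062) a negative one. Signs turned for Bak1 (0.027 after quantile normalization, 0.15 with the covariate, 0.20 as the mean of all probe sets, 0.079 without control mice 1 and 2, and -0.34 to 0.18 leaving out each mouse), for Bbc3 (0.079 after quantile normalization and -0.23 to 0.0051 leaving out each mouse), for Pmaip1 (0.010 after quantile normalization, 0.26 with the covariate, 0.27 without control mice 1 and 2, and -0.62 to 0.00050 leaving out each mouse) and for Bid (0.071 after quantile normalization, 0.016 with array weights, and -0.52 to 0.34 leaving out each mouse). The cause was not tested.

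The 5 comparisons of Bcl2l1 kept their direction. In place of the exact permutation test, model-based tests put the one against Bcl2 past the threshold, at 1.34 with array weights, 1.75 by the methods' test, 1.80 with the covariate and 1.75 with the replicate block (p = 5.2e-05). The one against Pmaip1 passed at 1.72, 1.67, 1.26 and 1.67 in the same order (1.29 to 2.08 leaving out each mouse), and the one against Bid at 1.12 with array weights, 1.53 with the covariate and 1.56 with the replicate block. With limma on the difference within each mouse, chosen after seeing the data, the unadjusted p (exact permutation 0.057 for each) was 0.0077 for Bcl2, 0.0041 for Pmaip1 and 0.015 for Bid, at 1.75, 1.67 and 1.56. Leaving out each mouse gave 0.96 to 1.83 for Bid. The comparison with Bbc3 lost an exact permutation p under 0.05 in 7 of 8 such cases (1.00 to 1.69) and that with Bcl2l11 in 4 of 8 (1.62 to 2.21). Both did so without control mice 1 and 2 (1.78 for Bbc3 and 1.49 for Bcl2l11), where 2 against 4 mice cannot give an exact permutation p under 0.067. Numbers of mice are shared between groups, but pair correlations were -0.24 to 0.42 and 0 of 4 RST mice correlated best with its own number. The replicate block gave 4234 unadjusted calls. It takes mice of the same number as pairs, so its limma p of 5.2e-05 rests on a pairing that the numbering did not make.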
